A study of Mus musculus with 36 samples.

Results

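Mesenteric lymph nodes of mice that had received a soluble lymphotoxin-beta receptor for 2 days were compared with nodes of mice given phosphate-buffered saline (PBS), which the labels place at day 0. The series title names the agent as an Ig fusion of the receptor, which can take up the ligands in solution as a decoy. The comparison used 12 of the 36 measurements of the series, chosen by their titles: 3 day 2 and 3 PBS samples on each of 2 Affymetrix oligonucleotide arrays, called array A and array B here, which carry different probe sets. The other 24 measurements come from days 1, 3, 27 and 35 of the same treatment, again 3 per day and array. The labels give no strain, sex, age or dose, and all RNA was total RNA of the node. No saline group harvested at day 2 and no control fusion protein appear among the labels, so 2 days of decoy cannot be told apart from 2 days of exposure to a foreign protein. They also do not say whether the 3 samples of a group were separate mice, and the spread that the p-values measure, between these samples, may be technical.

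The lymphotoxin-beta receptor sits on stromal and endothelial cells of lymph nodes, and its ligands, membrane lymphotoxin and LIGHT, are made mostly by lymphocytes. Receptor signalling stabilises the kinase Map3k14 and activates the noncanonical NF-kB pathway, in which Nfkb2 is processed and pairs with Relb. In the adult node this signal is known to maintain follicular dendritic cells, which hold antigen in the B cell follicles, and high endothelial venules, where blood lymphocytes cross into the node. In RNA of a tissue, fewer cells of a type and less RNA per cell cannot be told apart.

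All values below are the deposited intensities on a linear scale, in arbitrary units, and log2 differences are day 2 minus PBS from a limma fit of each array's table, given with their standard errors (SE). A probe set is a group of probes read together as 1 value, and some probe sets are annotated to several genes. A probe set is called where its Benjamini-Hochberg adjusted p over all tested probe sets of the array is under 0.05. On array A, 14 of 12231 tested probe sets were called (0.114%), 11 lower (0.0899%) and 3 higher (0.0245%). On array B, 3 of 12516 were called (0.024%), all lower. With the replicate number as a block array B gave 10 calls, 5 higher and 5 lower, and with array weights 470, 241 higher and 229 lower, each including the 3. Leaving out any 1 of the 6 arrays lowered these counts, to between 4 and 7 on array A and to 1 or 2 on array B. At an unadjusted p under 0.05 there were 521 higher (4.26%) and 154 lower (1.26%) on array A, and 404 higher (3.23%) and 479 lower (3.83%) on array B. Most probe sets lay close to 0, with medians of 0.026 and -0.0087 (log2) and 31 and 36 probe sets beyond 0.5 in either direction. Median intensities of single samples lay between 273 and 291 (array A) and between 156 and 159 (array B). Correlations across probe sets between pairs of the 6 samples were 0.977 to 0.992 (array A) and 0.921 to 0.978 (array B), and no sample was a copy of another.

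**Figure D1:**
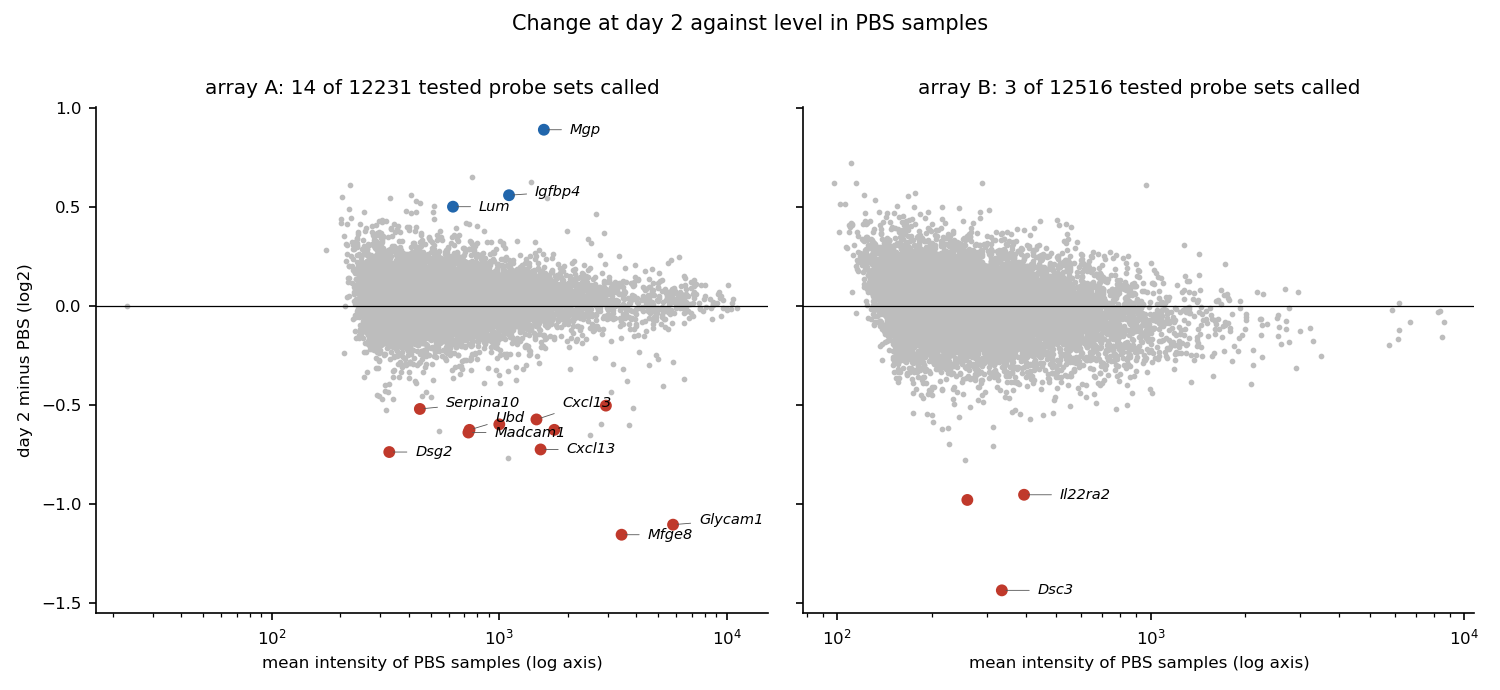
Log2 difference of day 2 minus PBS (vertical axis) against the mean intensity of the 3 PBS samples (horizontal log axis) for every tested probe set of array A (left) and array B (right). Red points are called lower, blue points called higher and grey points not called; 4 called points without a single gene symbol carry no name. Mfge8 and Glycam1 combine a high PBS level with a fall of more than 1 on the log2 scale, and Dsc3 on array B fell by 1.44.

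The called probe sets stood for 12 genes with a single symbol, 9 lower and 3 higher. The lower genes were Mfge8, Cxcl13, Glycam1, Madcam1, Ubd, Dsc3, Dsg2, Il22ra2 and Serpina10, and the higher ones Mgp, Lum and Igfbp4. A further 4 called probe sets, all lower by 0.50 to 0.98 (log2), carry no symbol or several symbols and are not named. NF-kB dimers are known to bind DNA words that begin with GGG and end with CC, so the start regions of fallen genes are shown to let such words be seen in place. Of the 12 genes, 6 were searched in RefSeq's promoter table (GRCm38.p6): Lum, Mgp, Il22ra2 and Serpina10 were not matched to an entry, and Dsc3 and Dsg2 were left out by chromosome. The counts of matches cover only the 6 searched. The 250 bases upstream of the start are printed, 5′ to 3′ along the gene, for the 5 of them that fell. Capitals mark GGG, any 5 bases and CC, read on either strand, with overlapping matches run together.
Cxcl13 (chr5:95956689-95956938, plus strand): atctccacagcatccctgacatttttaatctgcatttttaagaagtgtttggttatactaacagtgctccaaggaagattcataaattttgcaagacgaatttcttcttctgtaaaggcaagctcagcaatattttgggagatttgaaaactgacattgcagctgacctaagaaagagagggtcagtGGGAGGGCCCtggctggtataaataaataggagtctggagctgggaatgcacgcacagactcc
Mfge8 (chr7:79149061-79149310, minus strand): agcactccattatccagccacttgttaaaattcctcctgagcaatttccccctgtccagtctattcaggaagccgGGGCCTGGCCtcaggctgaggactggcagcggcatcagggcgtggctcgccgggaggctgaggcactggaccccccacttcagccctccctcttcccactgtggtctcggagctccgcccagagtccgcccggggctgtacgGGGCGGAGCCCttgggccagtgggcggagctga
Madcam1 (chr10:79664309-79664558, plus strand): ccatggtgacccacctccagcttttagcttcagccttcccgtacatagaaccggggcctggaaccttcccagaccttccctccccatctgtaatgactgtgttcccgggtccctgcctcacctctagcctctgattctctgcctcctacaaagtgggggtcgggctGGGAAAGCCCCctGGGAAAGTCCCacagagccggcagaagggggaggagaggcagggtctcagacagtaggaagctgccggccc
Ubd (chr17:37193642-37193891, plus strand): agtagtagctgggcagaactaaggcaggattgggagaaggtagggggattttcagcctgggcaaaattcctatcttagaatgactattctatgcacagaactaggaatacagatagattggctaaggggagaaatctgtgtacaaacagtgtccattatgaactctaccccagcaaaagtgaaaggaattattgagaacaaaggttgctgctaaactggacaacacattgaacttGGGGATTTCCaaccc
Glycam1 (chr15:103565082-103565331, minus strand): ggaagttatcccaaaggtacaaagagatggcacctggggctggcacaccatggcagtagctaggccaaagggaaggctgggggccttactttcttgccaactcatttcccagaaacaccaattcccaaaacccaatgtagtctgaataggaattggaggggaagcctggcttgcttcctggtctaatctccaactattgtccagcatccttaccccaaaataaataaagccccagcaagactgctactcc
The word was found in 5 of the 6 upstream regions: in Cxcl13, Mfge8, Madcam1 and Ubd, and in Igfbp4, which rose. Glycam1, with the second largest fall on array A, had 0 matches. Madcam1 had 4 matches, some of them overlapping, Mfge8 3, and Cxcl13, Ubd and Igfbp4 1 each. The same word stood in 45.8% of the 32851 upstream regions of the table. A match describes letters in this window and is not a binding site.

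Mfge8 and Cxcl13, both made by follicular dendritic cells, fell at day 2. Mfge8, a secreted protein that bridges dying cells to phagocytes, measured 3372, 3621 and 3354 in the PBS samples and 1559, 1529.6 and 1554 in the day 2 samples. The groups were far apart, and the 3 day 2 samples differed among themselves by less than the PBS samples did. Its level at day 2 was 44.9% of the PBS mean (log2 difference -1.16, SE 0.11, adjusted p = 2.81e-05), and the call held with each of the 6 arrays left out. Cxcl13, the chemokine that draws B cells into follicles, was measured by 2 probe sets on array A, and both fell. The first gave 1455, 1554 and 1549 in PBS and 904, 998 and 858 at day 2 (-0.73, SE 0.11, adjusted p = 0.00566). The second gave 1574, 1388 and 1408 against 1043, 916 and 976 (-0.57, SE 0.094, adjusted p = 0.0148). On both, every day 2 sample lay below every PBS sample. The call of the first ended without PBS replicate 2 or day 2 replicate 3 (adjusted p up to 0.0667), and that of the second without any array other than day 2 replicate 1 (up to 0.124).

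Clu, a secreted chaperone that is abundant in follicular dendritic cells, did not pass the threshold on any of its 4 probe sets. The one with the smallest p read 2926, 3252 and 3072 in PBS samples and 2322, 2173 and 2343 at day 2 (-0.44, SE 0.088, adjusted p = 0.0792), and the other 3 lay between -0.38 and -0.30, each with all day 2 samples below all PBS samples. Cr2, the complement receptor that holds immune complexes on these cells and is also made by B cells, read 1269.7, 1179 and 1169.8 against 1083, 1058 and 918 (-0.25, adjusted p = 0.759). Lrat, a retinol-esterifying enzyme, stood at -0.26 on array B (adjusted p = 0.667). The values of the adhesion molecule Vcam1 (0.0076, 95% interval -0.15 to 0.16) and the Fc receptor Fcgr2b (0.049, -0.12 to 0.21) overlapped between the groups, and that of Vcam1 changes sign with quantile normalization or a common median. Prnp, the prion protein, was at -0.32 (adjusted p = 0.114) on 1 probe set and at -0.049 on another.

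In all, the follicular dendritic cell list had 19 tested members of 27. Of these 3 fell (Mfge8, Madcam1, Cxcl13), where 0.0899% of array A and 0.024% of array B were called lower. Of the 19, 0 rose and 16 did not pass, with a median of 0.019 (log2) against 0.026 for all tested probe sets of array A. At an unadjusted p under 0.05, 6 were lower and 3 higher (Tnfrsf1a, Fcer2a and Postn), so members above and below 0 were both present. At this p 1.26% of array A was lower and 4.26% higher, and 3.83% and 3.23% of array B. In 6 of the 19, all day 2 samples lay below all PBS samples, against 4.81% of all tested probe sets of array A and 7.79% of those of array B; in 2 all lay above, against 9.5% and 7.98%. With single arrays left out 1 or 2 members remained called. Of the members too dim to be tested, 3 are in the fixed gene set. Bst1 read 253, 227 and 214 in PBS and 159, 144 and 136 at day 2 on its brighter probe set, and Coch 196, 221 and 209 and 153, 151 and 173, both lower without overlap. Tnfsf13b, the B cell survival factor BAFF, lay the other way without overlap, at 185, 168 and 166 in PBS and 254, 244 and 244 at day 2 on its brightest probe set. Fcer2a, which B cells make as well, read 1139, 1182 and 873 in PBS and 1421, 1172 and 1291 at day 2 (0.29, adjusted p = 0.752), and its groups overlapped.

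Among high endothelial venule genes Glycam1, Madcam1 and Ubd fell. Glycam1, a sulphated mucin that L-selectin on lymphocytes recognises, measured 5239, 6627 and 5555 in PBS samples and 2759, 2740.1 and 2565 at day 2. PBS replicate 2 was the highest, and the lowest PBS sample was still well above the highest day 2 sample. The day 2 mean was 46.3% of that in PBS (-1.10, SE 0.12, adjusted p = 0.000106), a call that held without any 1 array. Madcam1, the addressin that gut-homing lymphocytes bind, read 736, 826 and 632 against 471, 468 and 461 (-0.64, SE 0.10, adjusted p = 0.0112). Its PBS samples were spread widely while its day 2 samples were almost equal, with SDs of 97.3 and 5.23. The call ended without any array other than PBS replicate 3 (adjusted p up to 0.101). Ubd, a ubiquitin-like modifier induced by inflammatory cytokines, read 688, 763 and 768 against 476, 476 and 484 (-0.63, SE 0.11, adjusted p = 0.0329), with no overlap. Its call ended whichever array was left out (up to 0.207).

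The enzymes that build the sulphated sugars for L-selectin did not pass the threshold. Gcnt1, which branches O-linked sugars, read 276, 247 and 246 in PBS and 144, 183 and 126 at day 2 on array B. The groups did not overlap, but the day 2 samples were scattered and the difference of -0.78 (SE 0.25) did not pass (adjusted p = 0.667). The fucosyltransferase Fut7 (-0.016, 95% interval -0.17 to 0.13), the sulphotransferase Chst2 (-0.063, -0.27 to 0.15) and St3gal4 (0.11, -0.029 to 0.25) all overlapped. Chst4, the venule sulphotransferase, was too dim to be tested and read 78.7, 88.8 and 75.3 at day 2 against 110.0, 105 and 106. The chemokine-binding receptor Ackr1 of venules (-0.072, -0.29 to 0.14) did not pass either. Of 16 tested venule genes of 27, 3 fell, 0 rose and 13 did not pass, with a median of -0.052. Over all tested probe sets 0.0899% of array A and 0.024% of array B were called lower. In 4 of the 16 all day 2 samples lay below all PBS samples, against 4.81% of array A and 7.79% of array B. In 1 all lay above, against 9.5% and 7.98%. Madcam1 is in this list and in that of follicular dendritic cells, so they are not separate evidence. With single arrays left out 1 or 2 remained called. Of 9 tested genes of L-selectin ligand synthesis 1 fell, Glycam1, and 8 did not pass (median -0.016).

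Endothelial genes at large gave no further call. Of 18 tested blood endothelial genes 0 were called, with a median of 0.085. The 4 with the smallest p all lay above 0: Tie1 (0.33, adjusted p = 0.238), Cldn5 (0.33, 0.512), Eng (0.19, 0.744) and Plvap (0.24, 0.867). Other members lay below 0, the lowest at -0.18. In 3 of the 18 all day 2 samples lay above all PBS samples, against 9.5% of array A and 7.98% of array B. In 2 they lay below, against 4.81% and 7.79%. Pecam1, present on all endothelium, stood at 0.085 (95% interval -0.12 to 0.29). Of 13 tested lymphatic endothelial genes 1 was called, Madcam1, which the list shares, where 0.114% of array A was called. Lyve1 stood at 0.09 (-0.15 to 0.33). The scavenger receptors Stab1 (0.24, adjusted p = 0.859) and Stab2 (0.23, 0.958) did not pass. The median of the lymphatic list was 0.089. Beside Madcam1 other members lay below 0 as well, the lowest at -0.15. All day 2 samples lay above all PBS samples in 3 members, against 9.5% of array A and 7.98% of array B. They lay below in 1, against 4.81% and 7.79%.

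**Figure D2:**
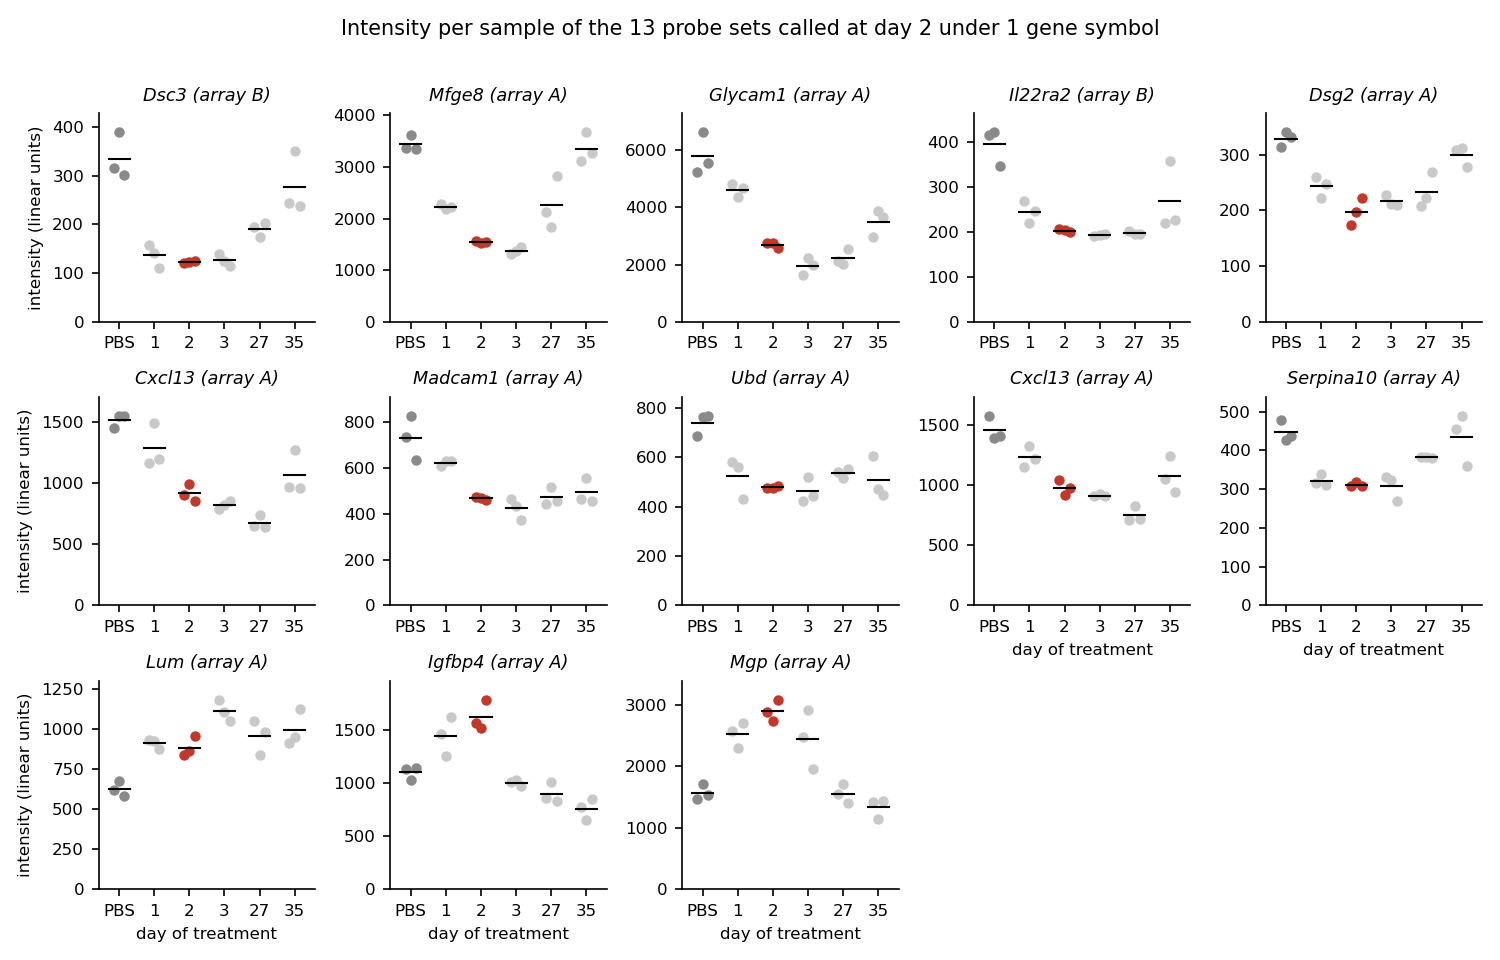
Deposited intensity (vertical axis, linear from 0) of the 13 called probe sets with 1 gene symbol in each of the 3 samples per group (points) with the group mean (line), by day of treatment, with PBS as day 0. Dark grey points are PBS samples, red points day 2 and light grey points other days; in all 13 panels the red points lie wholly on 1 side of the PBS points.

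The desmosomal cadherins Dsc3 and Dsg2, which hold epithelial cells together, each fell on 1 probe set, while their other tested probe sets did not pass. Dsc3 on array B read 315, 389 and 301 in PBS samples and 121, 123 and 125 at day 2, with a gap between the groups wider than either group's range. Its level of 36.7% of PBS was the lowest among the called genes (-1.44, SE 0.15, adjusted p = 0.000118), and the call held without any 1 array. The probe set of Dsc3 on array A read 328, 279.5 and 277 against 212, 218 and 213, also without overlap, and did not pass (-0.46, adjusted p = 0.108). Dsg2 read 314, 340.3 and 331 in PBS samples and 175, 197 and 222 at day 2 on its called probe set (-0.74, SE 0.10, adjusted p = 0.00382), which also held without any 1 array. Its 2 other tested probe sets lay at -0.31 and -0.12, both with overlapping groups, and 3 more were too dim to be tested. The remaining 4 of 6 tested desmosome genes did not pass, among them Pkp1 (-0.16, 95% interval -0.48 to 0.16) and Pkp4 (0.17, -0.11 to 0.44). Each gene stands in that list by its brightest tested probe set on array A. The list therefore leaves out the called probe sets of Dsc3 (array B) and Dsg2 and has 0 calls. For both called probe sets the 3 PBS samples exceeded the median of their table (158 on array B and 287 on array A). All 3 day 2 samples lay below it. Testing required values above this median on at least 3 arrays, and the day 2 samples did not add to that.

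**Figure D3:**
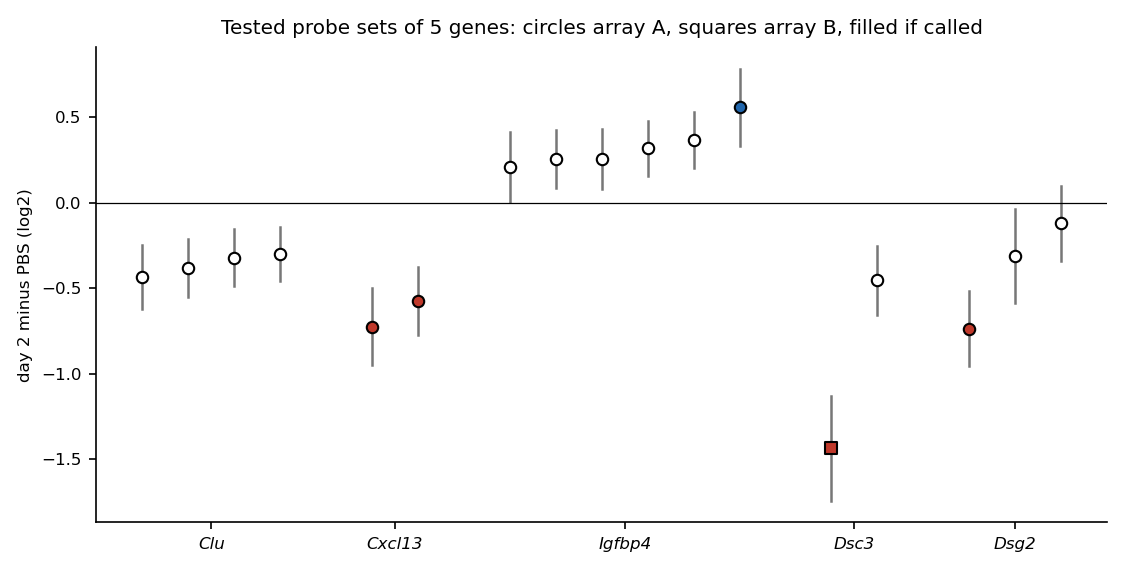
Log2 difference of day 2 minus PBS with the 95% interval of the fit (bars) for every tested probe set of 5 genes that have several, circles on array A and a square on array B, filled where called. All probe sets of a gene lie on the same side of 0, while their sizes differ, from -1.44 to -0.46 for Dsc3 and from 0.21 to 0.56 for Igfbp4.

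Il22ra2, a secreted decoy receptor for a cytokine that acts on epithelia, read 415, 421 and 347 in PBS samples and 205, 204 and 199 at day 2 on array B (-0.95, SE 0.14, adjusted p = 0.00839). The day 2 samples were close together and all below the lowest PBS sample, and the call ended without any array other than PBS replicate 3 (adjusted p up to 0.119). Of the other 5 tested genes of the interleukin 10 family and decoy receptor list none passed, with Il10 at 0.26 (adjusted p = 0.905). Serpina10, an inhibitor of blood coagulation, read 479, 426 and 438 against 307, 319.8 and 307 (-0.52, SE 0.10, adjusted p = 0.0439), and its call ended whichever array was left out (up to 0.245). It was in none of the lists.

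The 3 genes that rose belong to matrix and growth factor binding. Mgp, an inhibitor of calcification secreted into matrix, read 1463, 1708 and 1539 in PBS samples and 2884, 2739 and 3086 at day 2. Every day 2 sample was far above the highest PBS sample, and the difference of 0.89 (SE 0.12, adjusted p = 0.00365) held without any 1 array. Lum, a proteoglycan that binds collagen fibrils, read 617, 678 and 582 against 835, 861 and 956 (0.50, SE 0.095, adjusted p = 0.0463). Igfbp4, which binds insulin-like growth factors, read 1133, 1032 and 1145 against 1572, 1517 and 1790.3 on its called probe set (0.56, SE 0.11, adjusted p = 0.0498). Neither Lum nor Igfbp4 overlapped between the groups. Both calls ended whichever array was left out (adjusted p up to 0.375 and 0.422), and also with quantile normalization, a common median or no filter on dim probe sets. That of Lum also ended in a fit of only the groups compared, and that of Igfbp4 with no variance trend. The 5 other probe sets of Igfbp4, all brighter than the called one, lay between 0.21 and 0.37 and were not called.

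In the list of fibroblastic reticular cell and matrix genes, Mgp and Lum were the calls. Of 41 tested members of 45, 2 rose (Mgp and Lum), where 0.0245% of array A was called higher. Of the 41, 0 fell and 39 did not pass, with a median of 0.18 (log2) against 0.026 for array A. At an unadjusted p under 0.05, 21 were higher, where 4.26% of array A was, and 1 was lower, Fmod. In 22 of them every day 2 sample lay above every PBS sample, where 9.5% of array A did. The next members by p were Il7, the survival cytokine that these cells give to lymphocytes, at 585, 552 and 519 in PBS and 708, 702 and 693 at day 2 (0.35, SE 0.067, adjusted p = 0.0511), and 2 fibrillar collagens. Col3a1 read 1208, 1644 and 1273 against 1883, 1916 and 2566 (0.62, adjusted p = 0.114), with day 2 replicate 3 the highest. Col1a1 read 725, 753 and 666 against 947, 866 and 1056 (0.42, adjusted p = 0.114), and 0.18 on another probe set. Pdpn, the glycoprotein by which reticular cells are often sorted, did not pass (0.21, 95% interval -0.13 to 0.54), with PBS replicate 3 low. Leaving out single arrays gave medians of 0.16 to 0.21, 13 to 20 members higher at an unadjusted p under 0.05, and 1 called. Without day 3 replicate 3, day 27 replicate 2 and day 35 replicate 3, which had low weights in earlier results of these data and enter only the estimate of spread, 4 were called.

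Other tissues that a dissected node could carry were measured beside these genes. The summed intensity of 16 fat cell genes was 37610 to 40862 in PBS and 33836 to 41403 at day 2 (median difference -0.028, 0 called), with Pck1, an enzyme of gluconeogenesis, at 1229, 1354 and 1339.8 and 894, 1003 and 1332. Of 11 smooth muscle and mural cell genes 0 were called (median 0.0065), and the 10 of them on array A summed to 6613 to 7406 and 7111 to 7471. The pericyte gene Rgs5 stood at 0.29 (adjusted p = 0.759). Of 5 intestinal genes 0 were called, with differences from -0.13 to 0.35 (median 0.13), the highest being the goblet cell peptide Tff3 (adjusted p = 0.759). The 3 of them on array A had sums of 951 to 1209.9 and 1245 to 1387, which leave out those on array B. For 4 pancreatic genes the sums were 2527 to 2882 and 2853 to 3055 (median 0.085, 0 called), and for 6 red cell genes 2301 to 2669.7 and 2460.1 to 2619 (median 0.08, 0 called). The small respiratory chain subunits, 43 short transcripts, summed to 73914 to 76387 and 75386 to 78469 (median 0.034, 0 called). The fat sums did not move in 1 direction and the intestinal sums of array A did not overlap, and their part in the matrix result was not tested.

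Among the lymphotoxin and TNF ligands and receptors 0 of 12 tested genes were called, with a median of 0.11. The median ran from 0.035 without PBS replicate 3 to 0.17 without PBS replicate 1. At an unadjusted p under 0.05, 3 were higher and 1 lower, and none was higher without PBS replicate 2, PBS replicate 3 or day 2 replicate 3. At this p 4.26% of array A was higher and 1.26% lower, and 3.23% and 3.83% of array B. Ltbr itself read 748, 680.3 and 492 in PBS and 788, 750.5 and 699.8 at day 2, with PBS replicate 3 well below the other 5 samples. The difference of 0.24 had a 95% interval of -0.024 to 0.51. The ligand chains Lta (0.10, -0.14 to 0.34) and Ltb (0.14, -0.10 to 0.37) overlapped between the groups as well. Tnfsf14, the gene of the ligand LIGHT, was too dim to be tested. The receptors Tnfrsf1a (0.17), Tnfrsf1b (0.25) and Tnfrsf11a (0.21) lay above PBS in all 3 day 2 samples, each with an adjusted p of 0.823 or more. Btla, an inhibitory receptor of lymphocytes, read 2031, 2204 and 2039 against 1674, 1730.1 and 1389 (-0.39, adjusted p = 0.697).

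NF-kB subunits, inhibitors and kinases gave no call at the transcript level. Of 19 tested genes 0 were called, 0 had an unadjusted p under 0.05, and the median was 0.011. Nfkb1, Chuk and Traf3 had no probe set with a single symbol and are not among the 19. In 4 of the 19 all day 2 samples lay below all PBS samples, against 4.81% of array A and 7.79% of array B. In 0 all lay above, against 9.5% and 7.98%. Relb read 756, 885 and 812 in PBS and 842, 760.0 and 842 at day 2 (-0.0042, 95% interval -0.20 to 0.20). Nfkb2 read 834, 825 and 846 against 849.7, 833 and 842 (0.011, -0.20 to 0.22). The groups overlapped for both, and also for the kinases Map3k14 (0.017, -0.18 to 0.22) and Ikbkb (-0.036, -0.29 to 0.22) and the subunit Rela (0.10, -0.10 to 0.29). The 3 other tested probe sets of Ikbkb lay on the other side of 0, between 0.05 and 0.14. The small differences of Nfkb2 and Map3k14 turn negative with quantile normalization or a common median. These are transcript levels, and the arrays do not measure processing of the proteins. Of 9 tested NF-kB dependent adhesion and inflammation genes 2 fell, Madcam1 and Ubd, and 7 did not pass, among them Icam1 (0.10, -0.076 to 0.27). Of 14 tested genes of the list of homeostatic chemokines and their receptors 1 fell, Cxcl13. Most of the tested members are receptors, and Ccl19 and Ccl21a had no probe set with a single symbol. Over all tested probe sets 0.0899% of array A and 0.024% of array B were called lower. Cxcl12, a chemokine of stroma, read 2347, 2606 and 2422 in PBS against 3037, 3098 and 3186 at day 2, with no overlap and no call (0.34, adjusted p = 0.752). Its 2 other probe sets lay at 0.26 and 0.051.

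**Figure D4:**
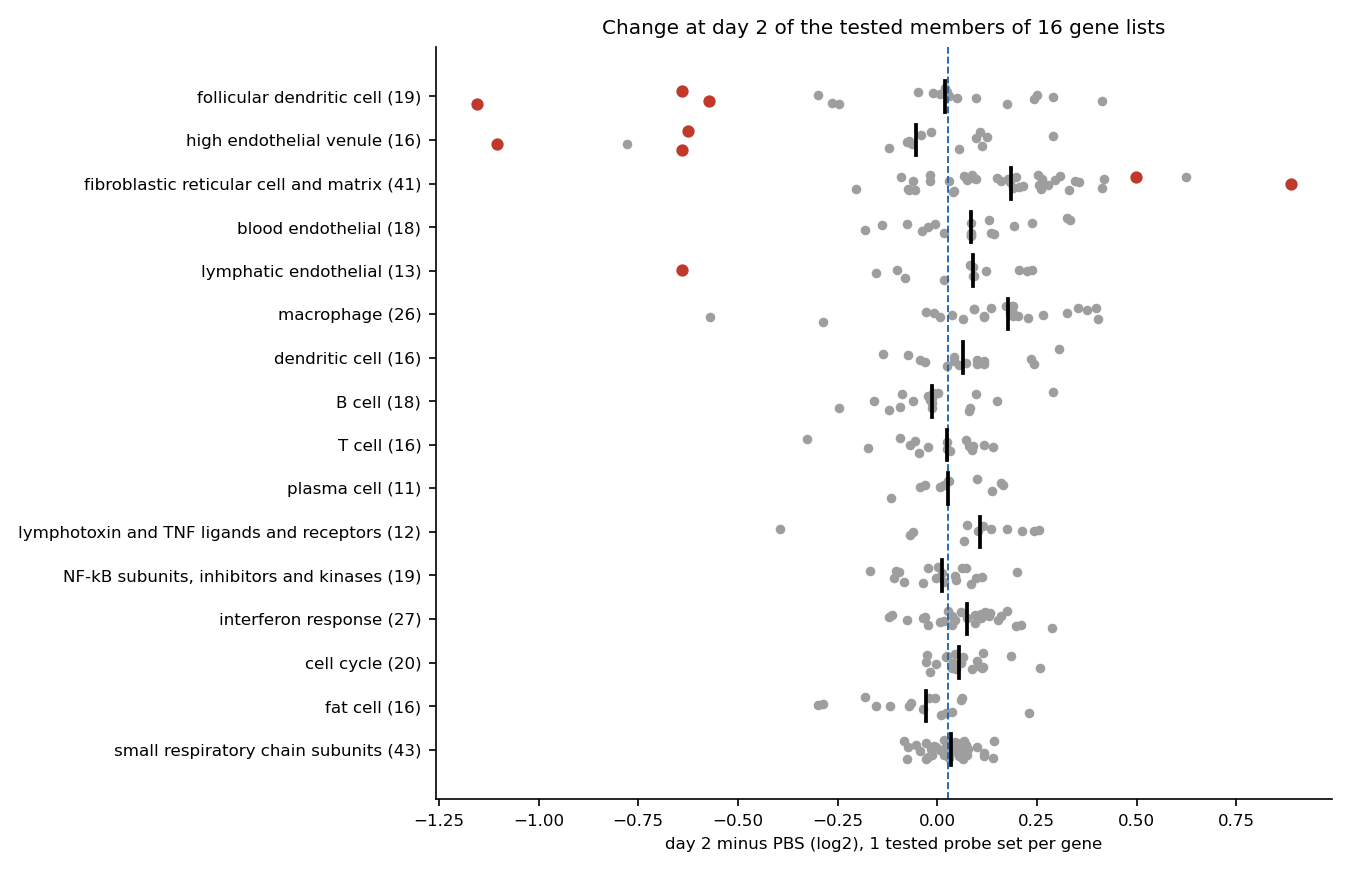
Log2 difference of day 2 minus PBS (horizontal axis) of each tested member of 16 gene lists, 1 probe set per gene, with the number tested in brackets. Red points are called, black bars are list medians and the dashed line is the median of all tested probe sets of array A (0.026); the fibroblastic reticular cell and macrophage medians are 0.18 and the NF-kB median is 0.011.

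Macrophage genes gave no call, with a median near that of the matrix list. Of 26 tested members of 29, 0 were called, 11 were higher and 2 lower at an unadjusted p under 0.05, and the median was 0.18. The shares of all tested probe sets of array A at this p were 4.26% and 1.26%. In 14 every day 2 sample lay above every PBS sample, where 9.5% of array A did. The 25 members on array A summed to 38137 to 38671 in PBS samples and 40162 to 41560.4 at day 2. That sum leaves out Timd4, which stands on array B and was lower. Lgmn, a lysosomal protease, read 853, 738 and 806 against 1073, 1069.6 and 1024 (0.40, adjusted p = 0.34). Cd14, a receptor for bacterial lipid, read 390.0, 386 and 348 against 483, 479 and 446 (0.32, adjusted p = 0.175), and Adgre1 stood at 0.37 (0.681). The 2 lower members were Timd4, a receptor of resident macrophages for dying cells, at 452, 396 and 386 against 276, 293 and 260.0 (-0.57, adjusted p = 0.662), and the lysozyme Lyz2 at 5762, 5733 and 5933 against 4818, 4706 and 4766 (-0.29, 0.114). Both had no overlap and neither passed. With single arrays left out the median was 0.13 to 0.17. Without the 3 arrays of low weight named above, 1 member was called higher and 1 lower.

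Lymphocyte and dendritic cell genes gave 0 calls: 18 B cell genes (median -0.014), 16 T cell genes (0.024), 5 germinal centre genes (0.021), 11 plasma cell genes (0.028), 7 natural killer genes (0.073) and 16 dendritic cell genes (0.064). The receptor for interleukin 7 on T cells, Il7r, read 919, 935 and 1053 in PBS samples and 791, 792 and 733 at day 2 (-0.33, adjusted p = 0.646), and -0.51 on its other probe set. Its groups did not overlap, in the direction opposite to Il7. The chemokine Ccl22 of dendritic cells (0.30, adjusted p = 0.68) and Flt3 (0.24, 0.859) were above PBS without passing. Xcr1 lay the other way at -0.14, the lowest of the 16. In 2 dendritic cell genes all day 2 samples lay above all PBS samples, against 9.5% of array A and 7.98% of array B. In 1 they lay below, against 4.81% and 7.79%. The survival gene Bcl2 read 569, 569 and 529.7 against 716, 733 and 749 on array B (0.40, adjusted p = 0.331) and stood at 0.28 on array A (0.146), while its other 3 probe sets ran from -0.025 to 0.29.

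Genes of cell state were not called. There were 0 calls among 27 interferon response genes (median 0.076), 20 cell cycle genes (0.054), 12 heat shock genes (0.046), 16 genes of cholesterol and fatty acid synthesis (0.028), 13 complement genes (0.091) and 21 immediate early genes (0.037). Of the last, 5 were higher at an unadjusted p under 0.05, against 4.26% of array A and 3.23% of array B, with Egr1 at 0.28 (adjusted p = 0.265), Myc at 0.22 and Junb at 0.26. Nr4a2 stood at 0.47 on 1 probe set and -0.31 on the other. Among complement genes Serping1, which inhibits the first component, stood at 0.25 (adjusted p = 0.497) and C1qa at 0.19 (0.79). Among interferon genes Gbp2 had 0.21 (0.681), and among heat shock genes Dnajb1 had 0.32 (0.741).

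The remaining genes with the smallest p and no overlap were not called without a block. On array A these were Zyg11b, a subunit of a ubiquitin ligase, at 309, 339 and 302 in PBS against 217, 227 and 215 (-0.53, adjusted p = 0.114), and Tbx6, a transcription factor, at 0.37 (0.16). On array B the organic anion transporter Slco2b1 read 751, 826 and 753 against 568, 537 and 516 (-0.52, adjusted p = 0.196), and its 2 other probe sets lay at -0.32 and 0.23. Also on array B were Ifi203 (-0.44, 0.662), the signalling adaptor Gab2 (-0.44, 0.662, with -0.0046 on another probe set), Gm38440 (0.57, 0.471) and Smg1 (0.72, 0.662, with 3 others from -0.21 to 0.15). With the replicate number as a block Slco2b1 (adjusted p = 0.0455) and Gm38440 (0.00666) passed the threshold.

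To place day 2 between its neighbours, day 2 was contrasted directly with day 1 and with day 3, which share the day 2 samples. Against day 1, 1 of 12231 probe sets was called on array A (0.00818%) and 0 of 12516 on array B by limma, where 248 had an unadjusted p under 0.05 (1.98%, the same share as on array A). The one was Glycam1, which read 4819.9, 4354 and 4682 at day 1 and 2759, 2740.1 and 2565 at day 2 (day 2 minus day 1 -0.78, SE 0.12, adjusted p = 0.0315). The groups were well apart, but the call ended whichever of the 6 arrays was left out (adjusted p up to 0.382). Mfge8 read 2279, 2183 and 2223 at day 1, above all day 2 samples, with a difference of -0.53 (95% interval -0.75 to -0.30, adjusted p = 0.667). The intervals of the Cxcl13 probe sets (-0.70 to -0.25 and -0.53 to -0.13), Madcam1 (-0.63 to -0.20) and Dsg2 (-0.52 to -0.085) lay below 0 too, without a call. The other called genes, among them Dsc3 (-0.45 to 0.17), Ubd (-0.36 to 0.12), Serpina10 (-0.25 to 0.16) and Lum (-0.24 to 0.16), had intervals that span 0. Set side by side, and sharing the PBS samples, the day 1 and day 2 differences from PBS were -0.32 and -1.10 for Glycam1, -0.63 and -1.16 for Mfge8, and -1.30 and -1.44 for Dsc3.

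**Figure D5:**
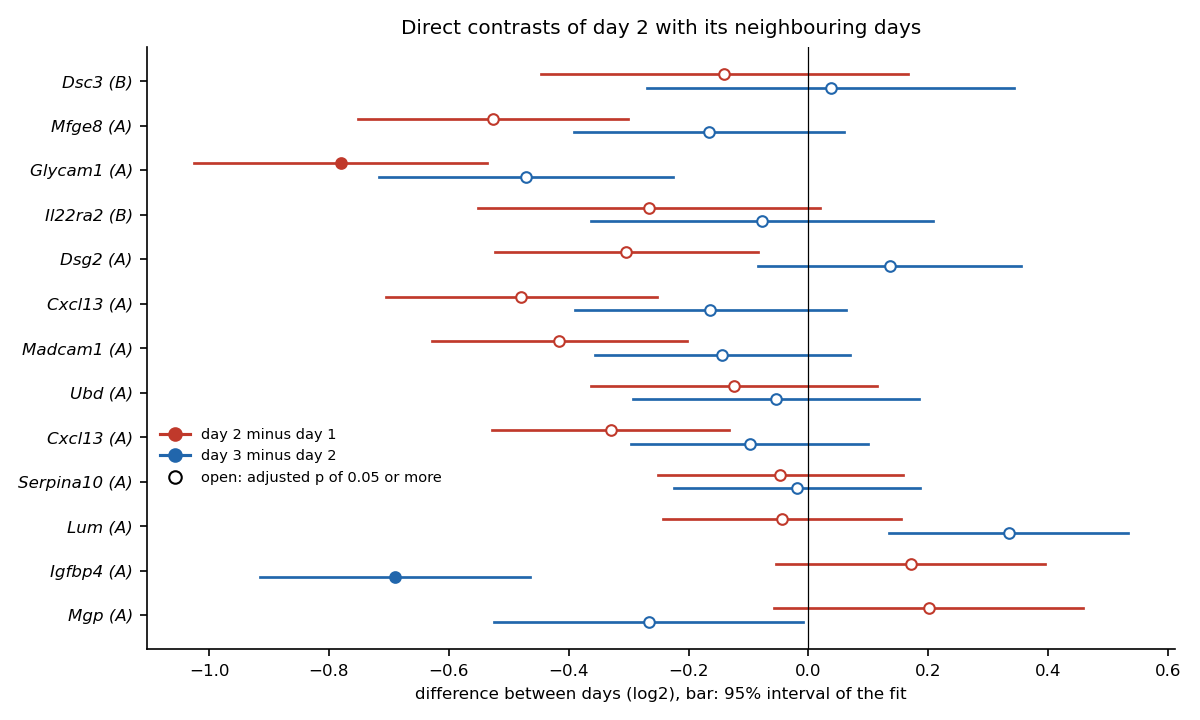
Difference between day 2 and day 1 (red) and between day 3 and day 2 (blue) on the log2 scale (horizontal axis) for the 13 called probe sets, with the 95% interval of the fit as a bar and the array in brackets. Filled points passed the threshold of their own contrast: Glycam1 between days 1 and 2 (-0.78) and Igfbp4 between days 2 and 3 (-0.69).

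Against day 3, 32 probe sets of array A were called (0.262%), all lower at day 3 (7 to 20 with single arrays left out), and 0 of array B by limma (2 with the replicate number as a block, both lower); 7.62% and 1.67% (209 on array B) had an unadjusted p under 0.05. With array weights 254 were called on array A, 52 of them higher at day 3. Of the genes called at day 2, only Igfbp4 was among them. It read 1572, 1517 and 1790.3 at day 2 and 1015, 1033 and 971 at day 3, back at or below the PBS samples (day 3 minus day 2 -0.69, SE 0.11, adjusted p = 0.00584), and the call ended without day 2 replicate 3 (0.0772). Its 5 other probe sets lay between -0.31 and -0.17 and were not called. The other named calls were genes not called at day 2. Septin1, a cytoskeletal GTPase, read 984, 968 and 945 at day 2 and 514, 543 and 539.6 at day 3 (-0.86, adjusted p = 2.11e-05), and the transcription factor Foxp1 366, 398 and 425 and 244, 221 and 233 (-0.77, 0.000154). Foxp1 has 7 other tested probe sets, at -0.49 to 0.047, of which 1 was called. Maz, a zinc finger protein, differed by -0.62 (0.00175) and the actin cross-linker Actn1 by -0.58 (0.00159), the latter with 2 other probe sets at -0.33 and -0.011. Glycam1 read 1639.8, 2244 and 1979.6 at day 3 (-0.47, 95% interval -0.72 to -0.23), without passing (adjusted p = 0.111).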

How the data were processed

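The values that the authors deposited are linear intensities, 1 for each probe set on each array; neither labels nor file headers name the software, background correction or scaling. Array A held 22626 and array B 22511 probe sets beside 64 controls each, of which 20380 and 14661 have a single symbol in the annotation, the condition for naming a gene. Intensities under the 20th percentile of the table (122.6 and 76.6) were raised to it before log2. Testing was limited to probe sets that exceeded the median of the table (287 and 158) on at least 3 arrays. Each table was fitted alone with limma 3.58.1 (R 4.3.3; 1 mean per group over all 6 groups, eBayes with trend), and p-values are two-sided with Benjamini-Hochberg adjustment. Samples of PBS and day 2 with the same replicate number deviated together on array B (r = 0.38, 0.22 and 0.1, all over 0.1 before rounding) but not on array A (0.25, -0.24 and 0.0048). On array B replicate 2 correlated better with another number (0.28) than with its own. The labels do not say what a number marks. The main fits of both arrays used no block, so array B values given without a block ignore such pairing. The procedure was tested on simulated data. Precision is limited by the number of arrays.

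A gene was named if called, or among the next 6 in each direction on array A or 3 on array B by p with no overlap. Up to 4 members of smallest p of each of 31 lists were named too. So were up to 4 calls in each direction of the contrasts with days 1 and 3, and a fixed set of pathway genes. Of the fixed set, Nfkb1, Chuk, Traf3, Ccl19, Ccl21a, Ccl21b and Ccl21c had no probe set with a single symbol. Tnfsf14, Tnfsf11 and Cd34 were too dim to be tested. Other genes with no value printed were left out for length. Fmod and Postn lie outside these rules of naming and were chosen after their values were seen. In a list a gene stands by its brightest tested probe set on array A, or on array B where none on array A was tested. The members and lists were chosen with earlier results of these data known. Alternatives covered scaling, floor, filter, variance model, array weights, replicate block, samples in the fit and single arrays left out.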

Additional observations from a re-analysis of the deposited data

Results flagged for a closer look

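For 6 of the probe sets named here, among 1 called between days 1 and 2 and 32 called between days 2 and 3 on array A, the difference from PBS changed between day 2 and a neighbouring day by a direct limma contrast of the days. Glycam1 was lower at day 2 than at day 1, by -0.78 (log2). Lower at day 3 than at day 2 were Igfbp4 (-0.69), Septin1 (-0.86), Foxp1 (-0.77), Maz (-0.62) and Actn1 (-0.58). With single arrays left out the calls of Septin1, Foxp1, Maz and Actn1 held, that of Igfbp4 ended without day 2 replicate 3, and that of Glycam1 ended in each of the 6 cases, with no filter on dim probe sets and without the 3 arrays of low weight. Actn1 was also lost in the fit of only the groups compared (adjusted p = 0.0508).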

How the results depend on the processing

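Over 25 other settings, 101 values of single probe sets gave 1910 comparisons, of which 1766 kept their direction and side of the threshold, 66 lost the threshold, 62 gained it and 16 changed sign; 0 called values changed sign. Mfge8, Glycam1, Mgp, Dsc3 on array B and Dsg2 were called at day 2 under every setting in which they could be tested. With no filter 13 probe sets were called on array A, 5 of them shared with the 14, and the calls of Madcam1, Ubd, Serpina10, Lum, Igfbp4, Il22ra2 and the weaker Cxcl13 probe set ended; more probe sets are then tested.

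The count of day 2 against PBS on array A (14) became 102 with array weights (55 higher and 47 lower, against 3 and 11), 24 with days 0 to 3 only, 31 without the 3 arrays of low weight, and 4 to 7 with single arrays left out. On array B (3) it became 470 with array weights (241 higher and 229 lower, against 0 and 3), 10 with a replicate block (5 and 5) and 1 to 2 with single arrays left out. Day 2 against day 1 on array A (1) became 5 with array weights, 2 with only the groups compared, 2 with days 0 to 3 only, and 0 without the 3 arrays or with any single array left out. Day 3 against day 2 on array A (32) became 21 with quantile normalization, 254 with array weights (52 higher and 202 lower), 8 with only the groups compared and 7 to 20 with single arrays left out. On array B (0) it became 3 with array weights and 2 with a replicate block. The causes were not tested.

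Values near 0 changed sign. Under quantile normalization Map3k14 was -0.011, Nfkb2 -0.018 and Vcam1 -0.019, and with a common median -0.0051, -0.011 and -0.014. With array weights Fut7 was 0.028. With single arrays left out Fut7 ran from -0.072 to 0.047, Ikbkb from -0.095 to 0.058, Lta from -0.013 to 0.16, Map3k14 from -0.054 to 0.058, Relb from -0.059 to 0.054 and Vcam1 from -0.067 to 0.076.

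On array A same-numbered samples did not deviate together, and own numbers correlated best in 1 of 3 cases. With the replicate block 13 probe sets were called there, and the calls of Lum and Igfbp4 ended. The value of Il7 passed with it. On array B the 10 calls of the block include the 3, Slco2b1 and Gm38440, and no other call of a probe set named in the report changed with it. Dim probe sets and 3 samples a group limit what could be called.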
